A study of Homo sapiens with 6 samples.

Results

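Chromosome 13 was described in the Hi-C maps of 4 cancer cell lines, because the bins of its long arm carried more read pairs in SNU-C1 than in the other lines. Its members were all pairs of 40-kb bins within the chromosome, and they were selected on measured coverage, so the coverage is given as a description. The chromosome held 2880 of the 72036 autosomal bins, of which 1743 were usable in all 4 lines and 2346 in SNU-C1, SW480 and HCC1954. The usable bins formed 1518153 bin pairs, of 110973599 within the autosomes, and 2750685 bin pairs on the chromosome when OE33 was left out. A bin was usable when it reached 0.25 of the median read pairs per bin of the autosomes in each line compared. The first usable bin began at 19.8 Mb and the last ended at 115.12 Mb (hg19), so every value refers to the long arm. The annotation places 322 protein-coding genes on the chromosome.

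Chromosome 13 is acrocentric, and its short arm is repetitive and holds ribosomal RNA genes. Its long arm is among the most gene-poor of the genome, with wide stretches that hold few genes other than those for neuronal adhesion proteins. Gain of the long arm is common in colorectal cancer, whereas loss of the retinoblastoma gene on the same arm drives other tumours. A Hi-C map counts how often 2 positions are found close together in the nucleus. Extra copies of a chromosome add read pairs to it, and matrix correction is meant to even out such differences in coverage between bins.

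The maps came from in situ Hi-C with the enzyme MboI, which cuts at GATC. SNU-C1 and SW480 are colorectal adenocarcinoma lines, HCC1954 is a breast adenocarcinoma line and OE33 an esophageal adenocarcinoma line, none with a further treatment in the labels. Each line other than SW480 had a single deposited map, while SW480 had a map of replicate 1, of replicate 2 and a further one with no replicate number. This further map equalled the sum of both replicates at 99.98% of 963301 bin pairs of chromosome 13 and was used as their pool. With 1 map a line no difference between lines was tested, and the spread between the SW480 replicates is the only measure of error here. The study calls its Hi-C replicates biological, and the labels do not say how the cultures were kept apart. Its methods describe assays in duplicate for the lines, so a map of SNU-C1, HCC1954 or OE33 may pool several libraries, and no spread is known for these 3 lines. The authors deposited corrected contact frequencies, from which read pairs were recovered as whole numbers at 100% of the values tested on chromosome 13 in each map. Within chromosomes, SNU-C1 had 115014329 read pairs, OE33 89418425, HCC1954 93501178 and SW480 133404080, and the SW480 replicates held 65991072 and 67374141.

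Folding boundaries, the positions across which contacts are depleted, are often bound by CTCF, a zinc-finger protein that halts loop extrusion. The reference sequence of the 10 strongest boundaries that SNU-C1, SW480 and HCC1954 shared was searched for the CTCF core consensus on both strands, in the boundary bin and its neighbours. The matches are printed because these are the bins at which the 3 lines have their strongest boundaries in common. Each line gives the position of the boundary bin, the place of the match in hg19 and the sequence from GRCh37, read 5′ to 3′ on the strand named, with the match to the consensus in capitals.
Boundary at 73.28 Mb, chr13:73270925-73270954, minus strand, between genes: ttcatttttCCACTAGATGGCagaaaaagc
Boundary at 44.44 Mb, chr13:44482706-44482735, plus strand, in an intron of ENSG00000281883: gataaactgCCACCAGGTGGCataaatcct
Boundary at 74.32 Mb, chr13:74296486-74296515, plus strand, in an intron of KLF12: ttcccttaaCCAGCAGATGGCtctcagagg
Boundary at 86.48 Mb, chr13:86471379-86471408, minus strand, between genes: acctacaagCCAGTAGATGGCatttaattg
Boundary at 61.04 Mb, chr13:61047882-61047911, plus strand, in an intron of TDRD3: cggacagggCCACTAGAGGGCtccctggtc
Boundary at 61.04 Mb, chr13:61047915-61047944, plus strand, in an intron of TDRD3: cggacaaggCCACTAGAGGGCtccctgggc
Boundary at 51.68 Mb, chr13:51695185-51695214, minus strand, in an intron of C13orf42: aaaacccaaCCACCAGGGGGCagaagaggt
Boundary at 109.56 Mb, chr13:109614054-109614083, plus strand, in an intron of MYO16: gtagatctaCCAGTAGATGGCgacatagta
A match was present in 7 of these 10 boundaries and in 29 of all 66 boundaries shared by the 3 lines (43.9%). It was present in 3 of the 14 boundaries that only SNU-C1 had among these 3 lines, and in 25.5% of all 2346 windows of 3 bins around a usable bin of the chromosome. A match is a feature of the reference sequence, and binding of CTCF was not measured in these maps.

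SNU-C1 had the highest coverage of chromosome 13 of the 4 lines, over almost the whole long arm. The chromosome took 8154086 read pairs or 7.09% of the read pairs within chromosomes in SNU-C1. It took 4661247 or 3.49% in SW480 (2309261 and 2351695 in the replicates), 2804018 or 3.0% in HCC1954 and 1853407 or 2.07% in OE33. The median level of the chromosome, relative to the autosome median of the same line, was taken over bins usable in all 4 lines. Bins that OE33 does not list are thus left out. This level was 2.28 in SNU-C1, 1.07 in SW480, 0.976 in HCC1954 and 0.835 in OE33, and 1.06 in each SW480 replicate. SNU-C1 therefore stood above the level of the typical autosome and the other 3 lines lay near or below it. Relative coverage, the level of a bin in a line over the median level in the other 3 lines, had a median of 2.28 in SNU-C1. This was the highest of the 22 autosomes in SNU-C1 and of all 88 combinations of line and autosome. The next autosomes of SNU-C1 were chromosome 8 at 1.55, chromosome 20 at 1.21 and chromosome 21 at 1.2. In the other lines chromosome 13 had a relative coverage of 1.04 in SW480, 0.848 in HCC1954 and 0.817 in OE33. Read pairs are averaged over the cells of a culture, so more copies in every cell and still more copies in some of the cells cannot be told apart.

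In 1-Mb blocks, the higher coverage of SNU-C1 extended over the arm. All 72 blocks usable in 4 lines lay at least 25% above the other lines, the threshold set for a block, where 20.7% of the 1-Mb blocks of all autosomes did in SNU-C1. Their relative coverage ran from 1.63 to 3.37. Without OE33, 94 of 95 blocks reached the threshold against 16.7% of the autosomal blocks, and values ran from 0.819 to 3.14. The lowest block above the threshold was at 65 Mb with 1.42, and the block below it was at 66 Mb with 0.819. As the rule that selected the chromosome used this measure, nothing is read from these counts.

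**Figure D1:**
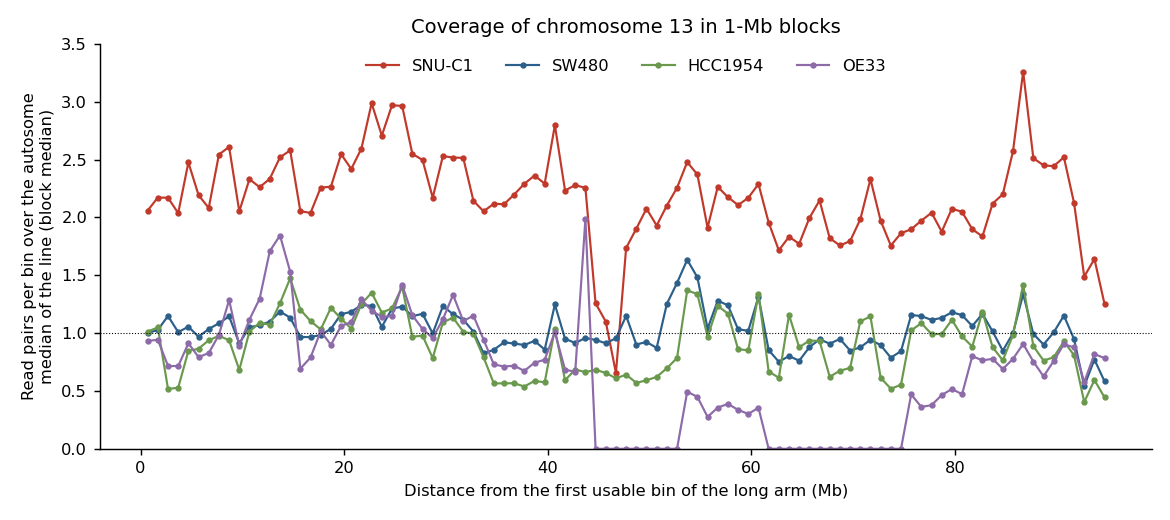
Read pairs per 40-kb bin over the autosome median of each line (y axis, median of each 1-Mb block) against the distance from the first usable bin of the long arm of chromosome 13 (x axis, Mb), for the 4 lines. SNU-C1 lies above the other lines along the arm except in a dip near the middle of the arm, and OE33 has 2 wide stretches at 0, where its map lists no read pairs.

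The coverage of SNU-C1 was not even along the arm. Positions were sought where the median level of 7 usable bins on either side differed by at least 0.4 on the log2 scale, in the same direction, in the ratios of SNU-C1 to SW480 and to HCC1954. There were 7 such steps, which divided the arm into 8 stretches. From 19.8 to 63.96 Mb, a stretch of 1091 usable bins, the median level was 2.33 in SNU-C1, 1.04 in SW480 and 0.966 in HCC1954. At 63.96 Mb the SNU-C1 level stepped from 2.11 to 1.30, while SW480 had 0.936 before and 0.955 after the step and HCC1954 0.651 and 0.694. At 65.64 Mb the SNU-C1 level stepped again, from 1.09 to 0.499. The stretch from 65.64 to 67.32 Mb was the only one in which SNU-C1 lay below SW480. There SNU-C1 had a median of 0.654 (range of 41 bins 0.324 to 1.06), SW480 had 0.965 (0.797 to 1.23; 0.966 and 0.961 in the replicates) and HCC1954 had 0.616 (0.475 to 0.775). The ratio of SNU-C1 to SW480 was 0.674 and that to HCC1954 was 1.03 in this stretch, against 2.25 and 2.47 in the first stretch. The dip is AT-rich, with a median GC content of 34.9% and 84 GATC sites a bin, against 39.2% and 96 sites in the first stretch. The following stretch had 35.6% and 87 sites. The part of base composition in the dip was not tested.

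At 67.32 Mb the SNU-C1 level stepped from 0.648 to 1.74. This step lies within PCDH9, a protocadherin gene of the nervous system (chr13:66876966-67804577). The long stretch from 67.32 to 95 Mb had a level of 1.99 in SNU-C1, 0.946 in SW480 and 0.768 in HCC1954. The stretches from 95 to 99.24 Mb and from 99.24 to 103.52 Mb had levels of 1.96 and 1.94 in SNU-C1 and 1.15 in SW480 in both. At the step between them, at 99.24 Mb, the level of the bins next to it went from 1.38 to 2.14 in SNU-C1, while SW480 had 1.17 and 1.14 and HCC1954 1.0 on both sides. The ratio of SNU-C1 to SW480 was thus 1.73 in each of these, the lowest of the stretches outside 63.96 to 67.32 Mb. Beyond 103.52 Mb the SNU-C1 level was 2.43 up to 113.08 Mb, the highest of the 8 stretches, with 0.990 in SW480 and 0.832 in HCC1954. At the step at 103.52 Mb the level next to it went from 1.90 to 2.38 in SNU-C1, which is less than 0.4 on the log2 scale. SW480 went from 1.28 to 0.958 and HCC1954 from 1.18 to 0.751 at the same position, so this step in the ratios lay partly in the other lines. It fell in a bin with ERCC5, which encodes a nuclease of nucleotide excision repair. The last stretch, from 113.08 Mb to the end, had levels of 1.48, 0.694 and 0.526 in SNU-C1, SW480 and HCC1954, and its ratios of 2.09 and 2.55 lay between those of the others. At 2 of the steps, 95 and 113.08 Mb, the level of SNU-C1 itself moved little (1.80 to 1.90 and 1.55 to 1.79), and the ratios shifted with the levels of SW480 and HCC1954.

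**Figure D2:**
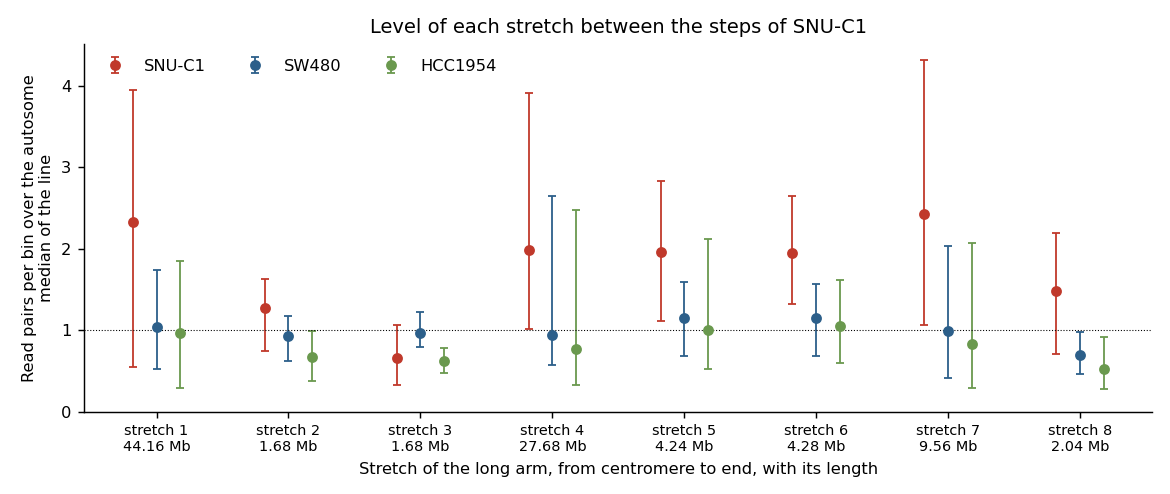
Median level of each stretch between the steps of SNU-C1 (points; y axis, read pairs per bin over the autosome median) in SNU-C1, SW480 and HCC1954, with the lowest and highest bin as bars; the x axis gives the stretches from centromere to end with their lengths. SNU-C1 has 2.33 in stretch 1, 0.654 in stretch 3, where SW480 lies above it, and 2.43 in stretch 7.

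OE33 limits the comparison on this chromosome. Its map listed no read pairs for 592 of the 2385 bins of the arm, against 12 in SW480, 21 in SNU-C1 and 38 in HCC1954. The longest run of such bins held 164 bins from 64.56 to 71.12 Mb. In the stretch from 67.32 to 95 Mb, OE33 had read pairs in 214 of 692 bins. The lowest level of any listed autosomal bin of OE33 was 0.148, so whether its missing bins were lost from the cells or left out by a filter cannot be told apart from the map. The bins missing from OE33 include the dip of SNU-C1, so results are given for all 4 lines and, on more bins, for SNU-C1, SW480 and HCC1954.

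The 5 blocks with the highest relative coverage in SNU-C1 lay at 57, 62, 58, 108 and 56 Mb, with 3.37, 3.28, 3.24, 3.24 and 3.05. The levels of SNU-C1 there were 2.2 to 2.45, close to its median. HCC1954 had 0.538 to 0.763, OE33 0.626 to 0.744 and SW480 0.897 to 0.933. The block at 58 Mb holds PCDH17, a protocadherin gene, and that at 108 Mb holds LIG4, the ligase of non-homologous end joining. The 5 blocks with the lowest relative coverage among those usable in 4 lines lay at 102, 34, 74, 76 and 73 Mb, with 1.63, 1.76, 1.77, 1.81 and 1.82. At 73 Mb the levels were high in 3 of the lines, with 2.48 in SNU-C1, 1.63 in SW480 and 1.37 in HCC1954, whereas OE33 had 0.494. The highest level of SNU-C1 itself was 3.26 in the block at 106 Mb, which holds DAOA, where SW480 and HCC1954 also reached 1.34 and 1.42. In the 22 blocks without the start of a protein-coding gene, the median level was 1.99 in SNU-C1, 0.905 in SW480 and 0.660 in HCC1954. In the 31 blocks with 5 or more starts it was 2.19, 1.09 and 1.01. The median of SNU-C1 was the highest in both kinds of block, although its lowest block without a start, at 66 Mb, had 0.655 against 0.955 in SW480. In OE33 the same medians were 0 and 0.943.

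All 63 genes of the lists lay at a higher level in SNU-C1 than in SW480 and HCC1954, each taken as the median of the bins within a window of 1 Mb. The ratio of SNU-C1 to SW480 ran from 1.36 to 2.63 with a median of 2.13, and that to HCC1954 from 1.58 to 4.13 with a median of 2.49. All 63 reached the threshold for a block in both ratios, as did nearly all blocks of the arm. Among the 16 genes of the region gained in colorectal cancer or used in the intestine, the ratios to SW480 were 1.53 to 2.45. CDX2, the homeobox factor that sets intestinal identity (chr13:28535055-28543452), had a level of 2.61 in SNU-C1, 1.13 in SW480, 0.939 in HCC1954 and 1.28 in OE33. CDK8, a kinase of the Mediator complex, had 2.46, 1.23, 0.917 and 0.856. KLF5, a factor of proliferating crypt cells (chr13:73629114-73651679), had the highest level of this list in SNU-C1, 2.74, with 1.78 in SW480, 1.55 in HCC1954 and 0.523 in OE33. Its ratio to SW480 was therefore only 1.53. DIS3, a catalytic subunit of the RNA exosome, and BORA, an activator of Aurora A, lie beside it and had 1.54 each. MIR17HG, the host gene of the miR-17-92 cluster, had 2.18 in SNU-C1, 0.956 in SW480 and 0.758 in HCC1954, and under 50% of the bins around it were listed in OE33. The lowest level of the list in SNU-C1 was 1.29 at TFDP1, the partner of E2F factors, where SW480 had 0.590 and HCC1954 0.445. With all 3 lines low near the end of the arm, the ratio to SW480 at TFDP1 was 2.16, and OE33 had 0.86 there.

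The 11 genes of tumour suppression and DNA repair had levels of 2.14 to 2.63 in SNU-C1 and 0.928 to 1.23 in SW480. RB1, the retinoblastoma gene (chr13:48877880-49173572), had 2.37 in SNU-C1, 1.08 in SW480, 1.02 in HCC1954 and 1.06 in OE33. BRCA2, needed for homologous recombination, had 2.42, 1.19, 1.2 and 1.72. The highest ratio to HCC1954 of all 63 genes was 4.13 at PCDH17, with 0.578 in HCC1954. Of the 10 genes of growth signalling, TNFSF11, the RANK ligand, had the highest level of any listed gene in SNU-C1 (2.97, against 1.13 in SW480 and 1.21 in HCC1954). FLT1 and FLT3, receptor tyrosine kinases, had 2.43 and 2.61 in SNU-C1 and 1.07 and 1.13 in SW480. FGF14 had the lowest ratios of the list, 1.59 to SW480 and 1.63 to HCC1954. The 6 genes of extracellular matrix and clotting had ratios to SW480 of 1.98 to 2.19, with COL4A1, a chain of basement membrane collagen, at 2.36 and F7, coagulation factor VII, at 1.47 in SNU-C1. Among the 14 genes of the gene-poor stretches PCDH9 had the lowest ratio to SW480 of all 63 (1.36), and its window crosses the step at 67.32 Mb. DIAPH3, a formin, had the highest level of the list, 2.79. The 6 neural transcription factors, among them SOX1 and ZIC2, had levels of 1.59 to 2.16 in SNU-C1 and 0.596 to 1.18 in SW480.

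Contacts within chromosome 13 were more frequent in SNU-C1 than in the other lines at all distances before correction. After correction SNU-C1 was the lowest of the 4 lines at 0.2 to 50 Mb, and beyond 50 Mb it lay above SW480 and OE33. O/E is the observed contact frequency over the mean of the autosomes of that map at an equal distance. At 2 to 10 Mb, O/E from read pairs was 2.23 in SNU-C1, the highest of the 22 autosomes of that map, 1.06 in SW480 (1.06 in each replicate), 0.964 in HCC1954 and 1.03 in OE33. From corrected values it was 0.930 in SNU-C1, rank 16 of 22, and 1.07 in SW480, 1.15 in HCC1954 and 1.2 in OE33, ranks 8, 4 and 3. SNU-C1 thus went from the highest to the lowest of the 4 lines, and its corrected O/E was 0.809 of the median of the other 3. The uncorrected O/E of SNU-C1 and its level of coverage count largely the same read pairs, so a quotient near 1 is partly fixed in advance. Divided by that level of 2.28, the uncorrected O/E was 0.949 at 0.2 to 2 Mb, 0.98 at 2 to 10 Mb and 1.05 at 10 to 50 Mb. Beyond 50 Mb the uncorrected O/E was 3.75 in SNU-C1, 1.64 times its level, and 1.43 in HCC1954, 1.47 times its level. Each such value pools all usable bins of the arm, and in SNU-C1 far contacts differed between stretches, as given with the block pairs. Corrected values beyond 50 Mb were 1.6 in SNU-C1, 1.62 in HCC1954, 1.2 in SW480 and 0.895 in OE33, on 105323 read pairs in SNU-C1. Without OE33, corrected O/E was 1.01 in SNU-C1, 1.16 in SW480 and 1.29 in HCC1954 at 2 to 10 Mb, and 1.32, 1.05 and 1.49 beyond 50 Mb. Without correction the values of the 3 lines at 2 to 10 Mb were then 2.13, 1.1 and 0.978, and beyond 50 Mb 3.01, 1.04 and 1.27. The factors used to recover read pairs were fitted within each chromosome in SW480 and across the genome in the other lines. The sources do not state whether the authors' correction differed in this way, and its part in the corrected O/E was not tested. Contacts with other chromosomes made up 25.8% of the read pairs of chromosome 13 in SNU-C1. HCC1954 had 28.3% and OE33 had 56.4%, and these shares were not compared with those of other chromosomes. The SW480 maps list almost no contacts between chromosomes (0.553% of the read pairs of chromosome 13) and were not compared for them. O/E scaled to the mean of chromosome 13 alone is 1 by construction, and only differences in pattern remain in it.

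**Figure D3:**
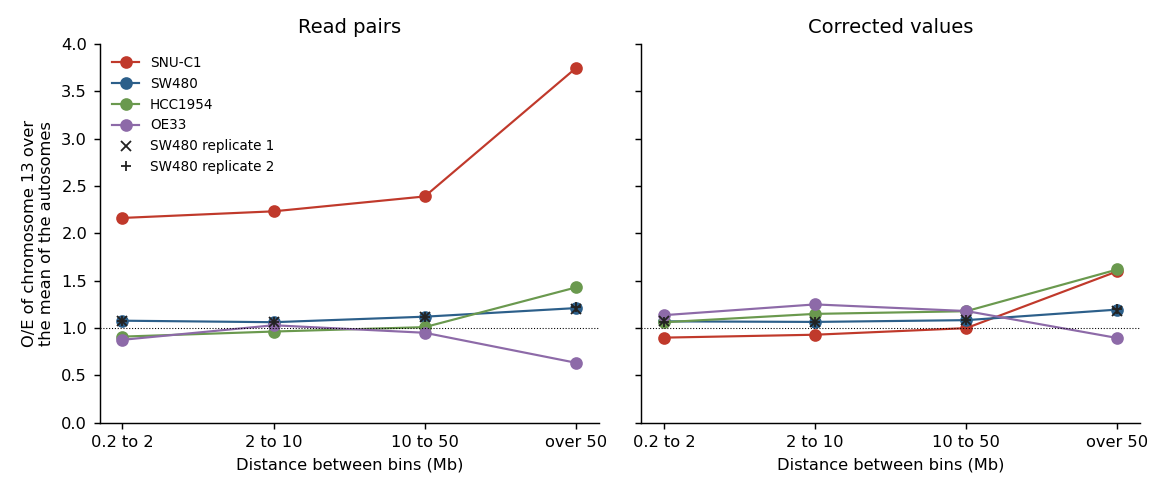
O/E of chromosome 13 over the mean of the autosomes (y axis) in 4 classes of distance (x axis, Mb), from read pairs (left) and from corrected values (right), for 4 lines and the SW480 replicates. SNU-C1 lies at 2.16 to 3.75 without correction and at 0.899 to 1.6 with it, and the SW480 replicates fall on the SW480 points.

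Few pairs of 200-kb blocks were specific to SNU-C1 when all lines were compared. A block pair at least 2 Mb apart was called specific to a line when its O/E was 4 or more and, with 0.5 added to every O/E, reached 4 times the highest value among the other lines. In SNU-C1, 28 of 59135 block pairs met this (0.0473%), against 0.196% over all autosomes, and chromosome 13 ranked 16 of 22. HCC1954 had 62, OE33 21 and SW480 3 on the same chromosome, although only 8 of the 62 in HCC1954 rested on 10 or more read pairs, against 22 of the 28 in SNU-C1. With SW480 replicate 2 or 1 in place of the pool, SNU-C1 had 45 or 50 and HCC1954 63 or 70. With a fold and O/E of 3 as the threshold, SNU-C1 had 247 and HCC1954 270. Without correction SNU-C1 had 2796 specific block pairs, and with the chromosome alone as the expected value it had 3. The count thus depends on the threshold, on the SW480 map and on how the level of the chromosome is taken out. Without OE33, which adds bins and also leaves a line fewer to exceed, 181 of 106516 block pairs were specific to SNU-C1 (0.170%, against 0.347% over all autosomes, rank 15 of 22). HCC1954 had 217 and SW480 8. Of these, 171 in SNU-C1, 33 in HCC1954 and 2 in SW480 held 10 or more read pairs. With the chromosome alone as the expected value, 133 block pairs were specific to SNU-C1 without OE33, 36 to HCC1954 and 5 to SW480.

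These block pairs lay mostly between the stretches before 65.64 Mb and the stretch from 103.52 to 113.08 Mb. Contacts of the stretch from 63.96 to 65.64 Mb with that from 103.52 to 113.08 Mb gave 84 of the 181, out of 368 block pairs, with a median O/E of 4.46 in SNU-C1, 0.826 in SW480 and 1.27 in HCC1954. Contacts of the first stretch, up to 63.96 Mb, with 103.52 to 113.08 Mb gave 57 more, with medians of 2.05, 0.911 and 1.23. With the last stretch, from 113.08 Mb, the first had medians of 1.93, 1.33 and 1.75 in these lines. With 67.32 to 95 Mb it had 0.758, 0.827 and 1.04, and SNU-C1 was also the lowest with the stretches from 95 to 103.52 Mb. The dip, from 65.64 to 67.32 Mb, gave 21 with 103.52 to 113.08 Mb, although its median O/E there was 0.461 in SNU-C1, 0.847 in SW480 and 1.09 in HCC1954. Each block was placed by its middle bin, so the block at 65.6 Mb, which crosses the step at 65.64 Mb, counted with the dip. How many of the 21 involved that block was not counted, so they are not read as contacts of the inner dip. By contrast, the long stretch from 67.32 to 95 Mb had a median O/E with 103.52 to 113.08 Mb of 0.882 in SNU-C1, 1.14 in SW480 and 1.32 in HCC1954, with no specific pair among 6302. Relative to distance, 103.52 to 113.08 Mb was thus in more contact with the part before the dip than with 67.32 to 95 Mb in SNU-C1. The order of these medians was the reverse in SW480 and HCC1954. For the stretches from 95 to 99.24 Mb and from 99.24 to 103.52 Mb the medians were 0.829 and 0.825 in SNU-C1 and 1.36 and 1.11 in SW480. In HCC1954 they were 1.22 and 1.21, below those before the dip, so the reverse order did not extend to these stretches in that line. Within the first stretch, with 21945 block pairs, and within the long stretch, with 8137, no pair was specific to SNU-C1. Of the 5 specific block pairs with the highest ratio, the first joined 65.6 and 103.6 Mb, with an O/E of 50.5 on 177 read pairs (95% Poisson interval 152 to 205), against 0.258 in SW480 and 0 in HCC1954. The next joined 65.6 with 105.4 Mb (O/E 13.5, 46 read pairs), 57 with 104.8 Mb (5.99, 32 read pairs), 51 with 108.6 Mb (4.82, 25 read pairs) and 64.4 with 103.8 Mb (11, 64 read pairs). In the comparison of all 4 lines the pair of 57 and 104.8 Mb had the highest ratio, with 32 read pairs in SNU-C1 and 0 in each other line. Intervals and counts of 0 cover counting error only.

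At the resolution of single bins, 2 corners of contact stood at the steps in the coverage ratios. Such a corner is a form that contacts can take where ends that are apart in the reference lie side by side. Whether the ends at these corners do so in SNU-C1 was not tested. The bins at 65.72 and 103.52 Mb, 37.8 Mb apart, shared 122 read pairs in SNU-C1 (interval 101 to 146) and 0 in SW480, in each of its replicates and in HCC1954, an O/E of 95.9. The contacts filled the quadrant of bins to the left of 65.72 Mb and to the right of 103.52 Mb (O/E 28.8 on 569 read pairs), while the other 3 quadrants had 0.282 to 0.521. No protein-coding gene lies in the bin at 65.72 Mb, and BIVM, ERCC5 and METTL21EP lie in the bin at 103.52 Mb. The bins at 63.88 and 67.32 Mb, 3.44 Mb apart, shared 536 read pairs in SNU-C1 (492 to 583), with an O/E of 24.0. SW480 had 1.93 there on 32 read pairs (15 and 17 in the replicates), and HCC1954 had 2.05 on 14. Again the quadrant to the left of 63.88 Mb and to the right of 67.32 Mb had the highest O/E, 10.1 in SNU-C1 against 2.5 in SW480 and 3.87 in HCC1954. The other quadrants had 0.50 to 1.72 in SNU-C1, 1.71 to 2.17 in SW480 and 2.71 to 3.25 in HCC1954. The same quadrant was thus the highest in each of these lines. Each bin of both corners lay at or within 2 bins of a step in the ratios of SNU-C1 to the other lines, that at 103.52 Mb included. With other chromosomes, the 200-kb block at 65.6 Mb shared 696 read pairs with the block at 68.4 Mb of chromosome 7, and the block at 103.4 Mb shared 400 with the same block. The blocks at 66 and 102.8 Mb shared 262 and 376 read pairs with chromosome 12 at 98.8 and 99.6 Mb, and HCC1954 had 0 in all 4 of these block pairs. OE33 had 0 in the pairs of 102.8 and 103.4 Mb and listed no read pairs for the bins at 65.6 and 66 Mb.

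The compartment pattern of chromosome 13 in SNU-C1 was like that of the other lines over most of the arm. Compartments divide chromatin into a gene-rich, active side and a gene-poor, inactive side, and they were scored for 200-kb blocks by the first eigenvector of the chromosome-scaled contacts, in SD, with the gene-rich side positive. SNU-C1 differed from all 3 other lines, by the opposite sign and at least 1 SD, in 6 of 353 blocks (1.70%), against 1.55% over all autosomes (rank 11 of 22). SW480 differed in 9 blocks, HCC1954 in 10 and OE33 in 6. Without OE33, SNU-C1 differed in 8 of 471 blocks (1.70%), against 2.71% (rank 17 of 22), while SW480 differed in 15 and HCC1954 in 22. In all 6 blocks of the comparison of 4 lines the score of SNU-C1 was the lower. The block at 102.2 Mb had -1.06 in SNU-C1, 1.08 in SW480 (1.17 and 1.04 in the replicates), 0.98 in HCC1954 and 0.90 in OE33. The block at 26.4 Mb had -0.90 in SNU-C1 and 1.2, 1.0 and 0.28 in SW480, HCC1954 and OE33. From 74.4 to 74.8 Mb, in blocks that overlap KLF12, the means were -0.82 in SNU-C1 and 0.72, 0.95 and 0.58 in the others. The block at 40 Mb (LHFPL6) had -1.25 in SNU-C1 and 1.17, 0.31 and 0.19, and that at 39.2 Mb (FREM2, an extracellular matrix protein) had -0.94 against 0.29, 0.72 and 0.54. Of these, 4 runs were a single block. Without OE33 the block at 39.2 Mb was not among those that differed. The SNU-C1 score was then -0.23 at 26.4 Mb and -0.74 at 40 Mb, and these blocks still differed. At 102.2 Mb it was -1.41, and the run from 74.4 Mb had a mean of -1.23. The scores of single blocks thus depend on the bins compared.

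The scores of SNU-C1 were positive in 46.5% of the 353 blocks, the lowest share, against 60.6% in SW480 (60.6% and 61.2% in the replicates), 61.8% in HCC1954 and 55.5% in OE33. Without OE33 the shares were 41.0% in SNU-C1, 49.3% in SW480 and 51.2% in HCC1954. Across blocks, the scores of SNU-C1 correlated with those of SW480 at r = 0.86, of HCC1954 at 0.81 and of OE33 at 0.87, while HCC1954 and SW480 gave 0.82 and the SW480 replicates 0.99. Without OE33, SNU-C1 had 0.87 with SW480 and 0.79 with HCC1954. The blocks of a map share its library and their neighbours, so these values are descriptions. SNU-C1 and SW480 had opposite signs in 60 blocks (17.0%), HCC1954 and SW480 in 48 (13.6%) and the SW480 replicates in 10 (2.83%). Without OE33 the order was the reverse, with 53 of 471 blocks (11.3%) for SNU-C1 and SW480, 73 (15.5%) for HCC1954 and SW480 and 8 (1.70%) for the replicates. Compartment strength, the O/E within the extreme 20% of blocks of each side over that between the sides, was 3.17 in SNU-C1, 3.12 in SW480 (3.07 and 3.14), 2.87 in HCC1954 and 5.80 in OE33. Without OE33 it was 3.64 in SNU-C1, 3.96 in SW480 (3.96 and 4.01) and 3.38 in HCC1954, so SNU-C1 lay above SW480 in the first comparison and below it in this one. Of the 61 listed genes with a score in the comparison without OE33, 38 were on the positive side in SNU-C1, 41 in SW480 and 42 in HCC1954, and only KLF12 had a sign in SNU-C1 opposite to both. The colorectal and intestinal list had 13 of 16 genes on the positive side in SNU-C1, with a median score of 1.07, against 1.09 in SW480 and 0.66 in HCC1954. CDX2 had 1.42, 1.18 and 0.49. The gene-poor list had 2 of 14 on the positive side in SNU-C1, with a median of -0.94. The score is chosen and signed by its correlation with gene density, so the sides of these lists are partly fixed in advance. Neighbouring genes such as DIS3 and BORA share the score of a block, so the genes are not separate values. NALCN, a sodium leak channel, had -1.43 in SNU-C1, -0.07 in SW480 and 0.90 in HCC1954, and DACH1, a transcription factor, had -0.99, 0.77 and -1.26.

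**Figure D4:**
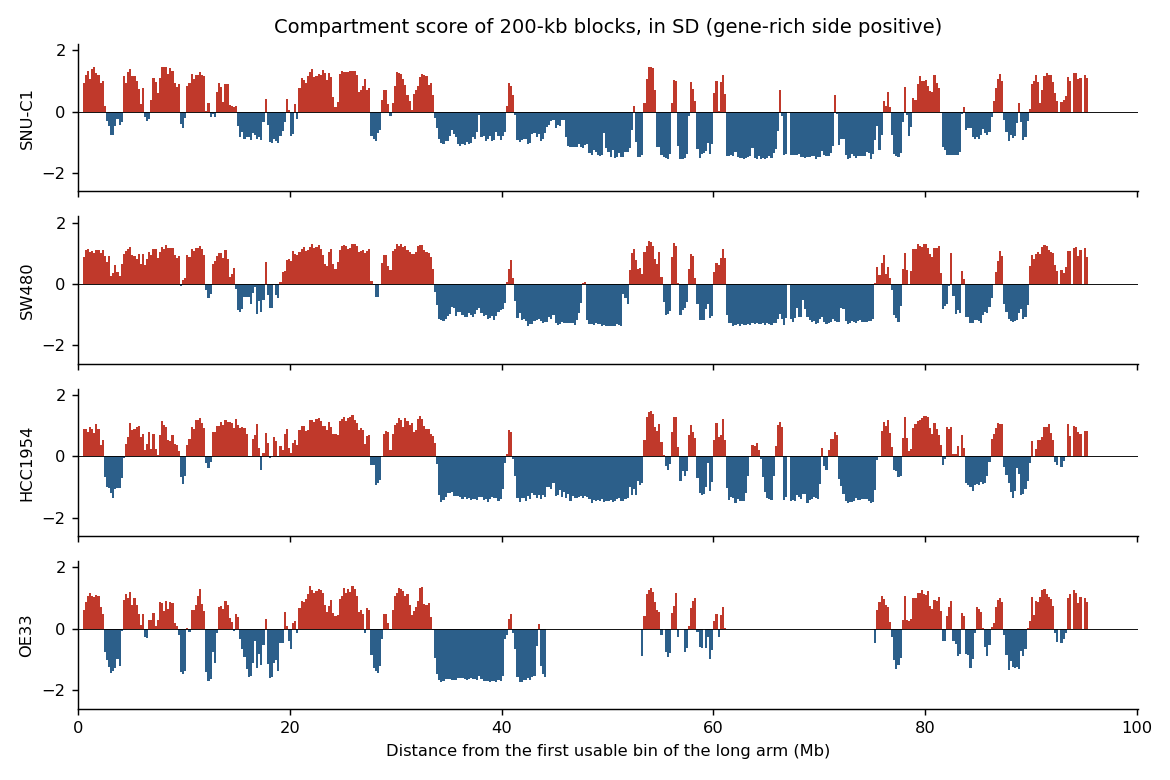
Compartment score of 200-kb blocks (y axis, SD; red above 0, the gene-rich side, and blue below) along the long arm of chromosome 13 (x axis, distance from the first usable bin in Mb) in SNU-C1, SW480, HCC1954 and OE33. The blocks alternate at much the same positions in the 4 lines, and OE33 has no score where its bins are missing. The scores of OE33 come from the comparison of 4 lines and the others from that without OE33, so their sizes are not on 1 scale.

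Most boundaries of SNU-C1 lay where the other lines had one. Insulation is the mean corrected contact frequency in a square of 1 Mb above each bin, as log2 over the chromosome mean, and boundaries are its local minima with a strength over 0.1. SNU-C1 had 69 boundaries, of which 47 were within 2 bins of a boundary in every other line and 5 had none in any other line (7.25%), against 8.01% over all autosomes (rank 12 of 22). SW480 had 3 boundaries of its own among 71, HCC1954 1 among 67 and OE33 2 among 60. Across 1686 bins the insulation of SNU-C1 correlated with SW480 at r = 0.93, HCC1954 at 0.93 and OE33 at 0.80, and the SW480 replicates at 0.996, again as a description of points that overlap. Without OE33 SNU-C1 had 94 boundaries, of which 14 were its own (14.9%), against 10.8% over all autosomes (rank 4 of 22), 4 among 91 in SW480 and 5 among 86 in HCC1954. SNU-C1 had the most read pairs on the chromosome. At equal depth the comparison of all 4 lines again gave 5, and equal depth without OE33 was not tested.

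The 5 strongest boundaries of SNU-C1 alone, without OE33, were at 91.92, 41.84, 65.8, 32.88 and 103.2 Mb. That at 65.8 Mb had the largest difference in insulation, with -0.54 in SNU-C1, 0.13 in SW480 (0.14 and 0.11 in the replicates) and 0.18 in HCC1954, and it lay 2 bins from the corner at 65.72 Mb. At 103.2 Mb, in TPP2, a peptidase gene, the insulation was -0.70 in SNU-C1 and -0.56 and -0.57 in the others, at a distance of 8 bins from the corner at 103.52 Mb. The bin at 103.52 Mb was itself a shared boundary, with insulation of -0.76 in SNU-C1, -0.79 in SW480 and -0.96 in HCC1954. The part of the corners in the boundaries at 65.8 and 103.2 Mb was not tested. At 91.92 Mb, ahead of MIR17HG, the strength was 1.3, the highest of the 14, but the insulation of -0.76 in SNU-C1 lay between -0.59 in SW480 and -1.02 in HCC1954, whose nearest boundaries were 240 and 160 kb away. At 41.84 Mb (KBTBD7, MTRF1 and NAA16) it was -0.77, -0.51 and -0.67, and at 32.88 Mb, in a bin with BRCA2, -0.51, -0.26 and -0.30. Other lines therefore had low insulation at 4 of these 5 positions and a boundary 120 to 360 kb away.

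The strongest shared boundary, at 73.28 Mb beside BORA and DIS3, had a strength of 2.39 in SNU-C1, 1.73 in SW480 and 1.98 in HCC1954. OE33 had no boundary within 2 bins of it, but the 1-Mb block at 72 Mb, just before it, held 0 bins usable in all 4 lines. With these bins missing no boundary could be called there in OE33, so the lines cannot be compared at this position. That at 44.44 Mb (LACC1 and CCDC122) had 1.79, 1.51 and 1.56, and that at 74.32 Mb in KLF12 had 1.94, 1.14 and 1.26. The window of each of these 3 holds a match to the CTCF consensus, in the sequences printed for 73.28, 44.44 and 74.32 Mb. In each case the match lies in a bin next to the boundary bin. The windows at 107.28, 85.36 and 53.04 Mb hold none.

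At equal depth, and with each chromosome scaled to itself, the folding of chromosome 13 in SNU-C1 was on average about as far from the other lines as these were from each other, OE33 included. Folding distance is the mean absolute log2 ratio of chromosome-scaled O/E between 2 maps, over 13582 pairs of 200-kb blocks 0.4 to 10 Mb apart, with each map thinned to 1620977 read pairs on the chromosome. The mean distance to the other lines was 0.34 for SNU-C1, 0.33 for HCC1954, 0.39 for OE33 and 0.33 for SW480, against 0.24 between the SW480 replicates. All lines thus lay further from each other than the replicates did, and OE33 lay furthest. The distance of SNU-C1 from the others was 0.98 times the mean of the distances among them, rank 12 of 22 autosomes in this line. For OE33 the same ratio was 1.15 (rank 2), and for HCC1954 and SW480 it was 0.943 and 0.936. The distances of OE33 enter the ratio of SNU-C1. SNU-C1 lay 0.324 from HCC1954 and 0.308 from each SW480 replicate, and HCC1954 lay 0.304 and 0.305 from these replicates. Without OE33 the ratio for SNU-C1 was 1.04 (rank 2 of 22), on 21740 block pairs that include the dip. Its distances were then 0.36 to HCC1954 and 0.33 to each SW480 replicate, and HCC1954 lay 0.32 from each replicate. With the mean of all autosomes as the expected value the ratio was 1.0 from corrected values and 1.53 from read pairs without correction. At 0.4 to 2 Mb it was 0.951 and at 10 to 50 Mb 1.01.

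**Figure D5:**
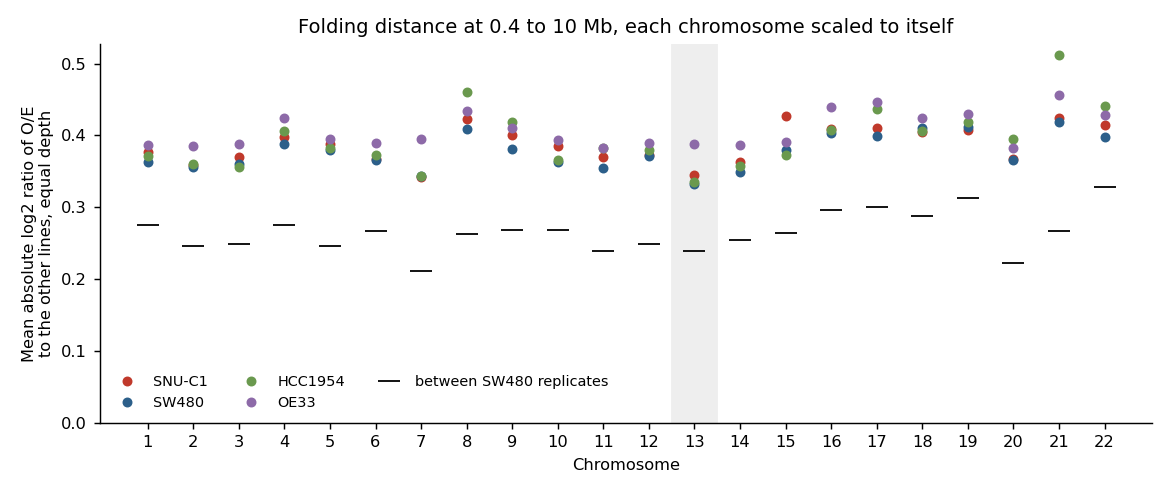
Mean folding distance of each line to the other lines at 0.4 to 10 Mb (y axis, mean absolute log2 ratio of O/E at equal depth) on each autosome (x axis; chromosome 13 shaded), with the distance between the SW480 replicates as a bar. On chromosome 13 SNU-C1 lies at 0.34, close to SW480 and HCC1954 and below OE33 at 0.39, and the replicates lie at 0.24.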

How the data were processed

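Chromatin of 4 cell lines was digested with MboI for in situ Hi-C, and per the methods reads were mapped to hg19 with BWA-MEM, duplicates were taken out with Picard, and in-house matrices were corrected iteratively. Their versions and filters are not given in the sources. The authors deposited a signal, the corrected contact frequency of 40-kb bin pairs. Those of HCC1954, OE33 and SNU-C1 carried no within-bin pairs. Read pairs were recovered by fitting a factor to each bin in 45 iterations, and a value counted as whole within 0.02 of a whole number. Expected values were means at each distance, smoothed beyond 5 Mb. 1-Mb blocks needed 13 of 25 usable bins and 200-kb blocks 3 of 5. Gene positions came from GENCODE lifted to GRCh37 and sequences from that build. No test was made, and Poisson intervals of 95% cover counting error only.

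The chromosome, the gene lists and the settings were chosen with earlier results of these data known. The named genes are those of the 6 lists, with the genes in the 5 highest and 5 lowest blocks of coverage, the 5 highest block pairs, the 5 strongest SNU-C1 boundaries and the 5 largest compartment differences. DAOA and the genes at shared boundaries and corners were chosen after their values were seen, as were the steps in coverage and the corners. Alternatives changed the read pairs counted, the bins, lines and blocks compared, the correction, the expected value, the thresholds, the window and the depth. Calculations were tested on simulated data. Figures were drawn with Matplotlib 3.10.9, maps were read with PyArrow 21.0.0, and values were computed with SciPy 1.17.1, NumPy 2.4.6 and pandas 2.3.3 in Python 3.11.15.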

Additional observations from a re-analysis of the deposited data

How the results depend on the processing

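No paired analysis was possible because only SW480 had replicate numbers. The relative coverage of 2.28 was 2.29 within chromosomes only, 2.37 from read pairs at least 1 Mb apart, 2.27 with the autosome mean, 2.32 with bins at 0.5 of the median, and 2.53, 2.39 and 2.24 without SW480, HCC1954 or OE33. It was 2.27 to 2.28 without a replicate. The share of blocks at the threshold was 98.9% to 100% in every alternative, blocks of 5 Mb and thresholds of 1.1 and 1.5 included. The corrected O/E relative to the other lines, 0.809, was 0.804 with bins at 0.5 of the median, 0.813 with the median of the autosomes, 0.820 without OE33 and 2.17 without correction. The median of the other lines in it is HCC1954, so replacing the SW480 map could not move it and the replicates give it no spread. The 28 specific block pairs became 2796 without correction, 3 when the expected value came from chromosome 13 alone, 1 with blocks of 400 kb and 247 at a fold and O/E of 3; 45 to 50 were found without SW480 replicate 1 or 2. Without OE33 there were 181, with 171 at 10 or more read pairs, 3369 without correction and 133 with chromosome 13 alone. Blocks with a differing compartment numbered 11 without correction and 19 at a difference of 0.5, in place of 6, and the other alternatives gave 6 to 8. The 5 boundaries of SNU-C1 alone became 3 with a window of 480 kb, 8 without correction and 14 without OE33, and 4 to 7 in the others. The folding ratio of 0.98 was 0.911 without thinning, 0.975 with 0.1 added, 0.951 at 0.4 to 2 Mb, 1.01 at 10 to 50 Mb, 1.0 and 1.53 with expected values from all autosomes, corrected and not, 0.949 with blocks of 400 kb and 1.04 without OE33, and 0.975 to 0.98 without a replicate. Alternatives without OE33 other than for coverage, and the O/E without correction, were added after the data were seen. Why the values moved was not tested. Of the specific block pairs, 8 of 62 in HCC1954, 9 of 21 in OE33 and 1 of 3 in SW480 held 10 or more read pairs, and equal depth was not tested for them.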
